A study of Mus musculus with 6 samples.

Results

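Glycolysis and the cellular response to low oxygen were followed through 35 genes, chosen by name for their part in these processes, that were present in all 3 deposited tables, out of 23889 gene symbols in each table. All 35 were found. They comprised 4 transporters of glucose and lactate, 14 glycolytic enzymes, 4 regulators of glycolytic flux and pyruvate use, the oxygen-regulated factor HIF-1α with 2 of its sensors, and 10 further genes known as targets of HIF. The rule names the genes and uses no measured value, but the genes were chosen with earlier results of these data known.

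Glycolysis splits glucose into pyruvate, most of which proliferating cells export as lactate. When oxygen is plentiful, prolyl hydroxylases of the EGLN family mark the HIF-1α protein for destruction, and when oxygen is scarce the protein accumulates, pairs with ARNT and binds DNA at the core letters ACGTG or GCGTG. Its known targets include most glycolytic enzymes, the glucose transporter Slc2a1, and the hydroxylases Egln1 and Egln3 themselves, so that these RNAs rise as a group in hypoxic cells. HIF-1α is set mainly at the level of the protein, which RNA does not measure. Mouse embryonic stem cells are known for a high rate of glycolysis, and male germ cells for a set of isozymes of their own.

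The study compared mouse androgenetic haploid embryonic stem cells (AG-haESCs) with round sperm and with embryonic stem cells labelled XX (ESC XX). AG-haESCs come from embryos made by injecting a sperm head into an oocyte without its spindle. The oocytes came from F1 hybrid (C57BL/6 X DBA/2) females of 8 to 10 weeks. The 3 AG-haESC libraries are 1 each from the lines A129-2, AOS-14 and AOS-16, which grew on feeder cells in 15% serum replacement with 2i (inhibitors of MEK and GSK3) and were collected as sorted haploid G0/G1 cells. The 1 library of round sperm, also F1 hybrid C57BL/6 X DBA/2, carries the same protocol text. The 2 ESC XX libraries came from cells of an Oct-GFP (C57) background grown in 15% fetal bovine serum, 1000 U/ml LIF and 2i and collected after removal of feeders, with no sort named. Serum, sorting, strain and ploidy thus differ together between AG-haESCs and ESC XX and cannot be told apart. The sources used here do not give oxygen tension, cell density or passage.

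RNA was polyA-selected and values are FPKM, fragments per kilobase of transcript scaled to sequencing depth. Depth, estimated from the steps between low values, ranged over the 6 libraries from about 9.16 to 19.6 (in units of 1e6 fragments). The sum of 5 pluripotency markers was 24.1 FPKM in round sperm but 1687 to 1956 in the lines. That of 6 spermatid markers was 36849 FPKM in round sperm but no more than 1.80 in any line. Both sums fitted the labels. The pluripotency sum hides Zfp42, which fell from 331 FPKM (A129-2) to 39.8 (AOS-16), with AOS-14 at 54.9 and ESC XX at 170 and 172. Spermatocyte markers, 3 in number, summed to 173 FPKM in round sperm, 26.4 to 52.0 in the lines and 9.90 and 9.76 in ESC XX. The sum over 5 feeder fibroblast markers came to 11.2 FPKM in A129-2, 85.9 in AOS-14, 98.5 in AOS-16 and 677 and 678 in ESC XX. Genes under 200 nt took 12.7% of the FPKM in AOS-14 and 6.26% in round sperm, against at most 0.111% in the other libraries. The ESC XX libraries differed by little more than counting noise (1.14 times the chance value of a chi-square statistic for genes of 10 to 100 fragments, 1.35 times for 100 to 1000), and whether they came from separate cultures is not stated in the labels. In bulk RNA, fewer cells of a type and less RNA per cell cannot be told apart.

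**Figure D1:**
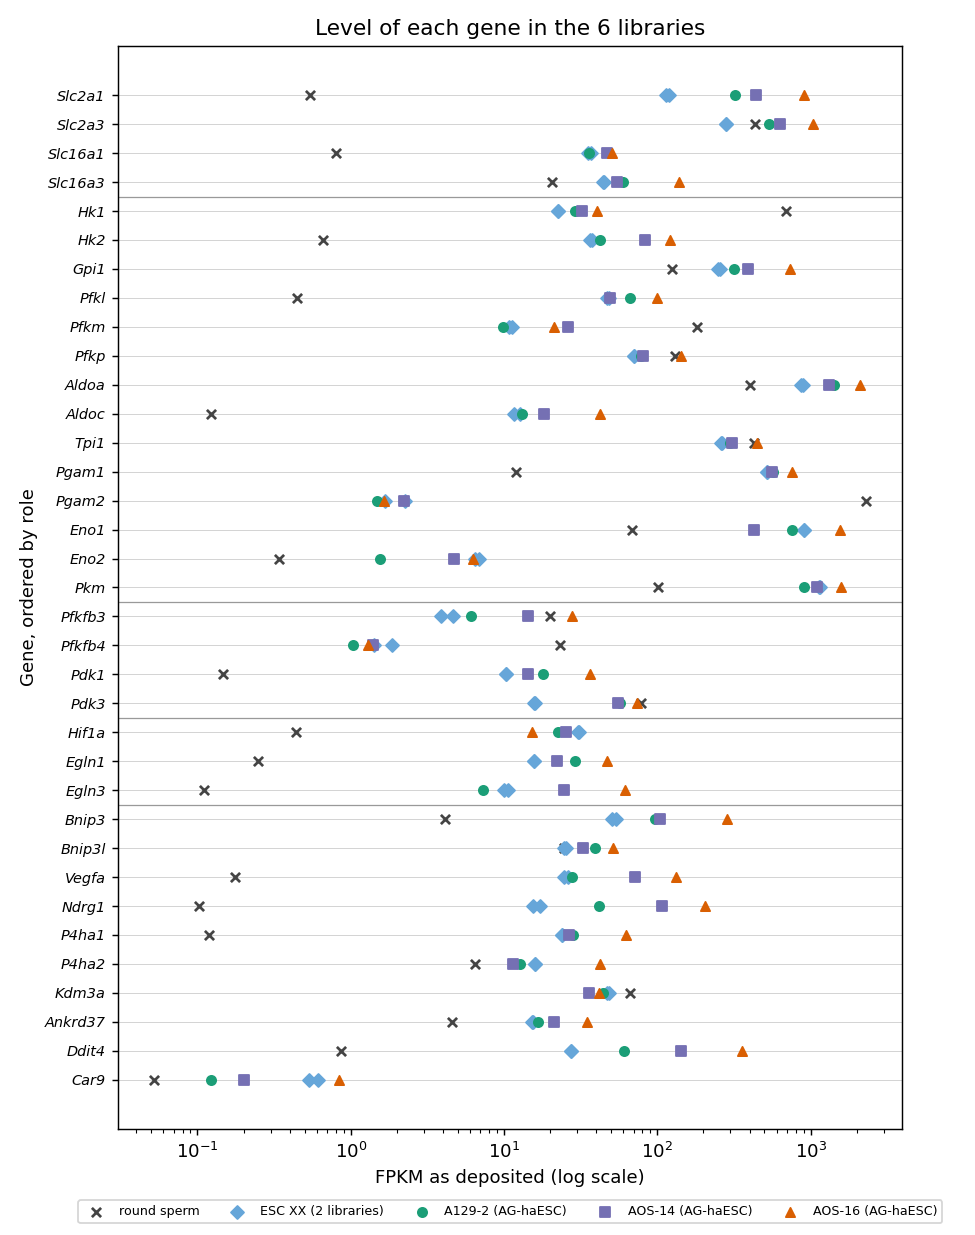
Level of the 35 genes in each of the 6 libraries, as deposited FPKM on a log axis, 1 point per library, with lines between the roles (transporters, enzymes, flux regulators, HIF factor and sensors, HIF targets). The round sperm crosses lie at the left for Slc2a1 (0.542 FPKM) and most HIF targets and at the right for Pgam2 (2316 FPKM) and Hk1 (696 FPKM), and the AOS-16 triangles are the rightmost of the AG-haESC symbols in most rows.

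Among the genes of this group, AG-haESCs and round sperm differed in the leading member of some steps and not of others. Of the summed FPKM of Aldoa and Aldoc, Aldoa held 99.97% in round sperm and 98.6% ± 0.522 (SD, n = 3) in AG-haESCs. Of that of Eno1 and Eno2, Eno1 held 99.5% and 99.4% ± 0.467. With genes outside the group counted, neither Aldoa nor Eno1 led in round sperm. Aldoart2 was at 521 FPKM there and Aldoart1 at 164, against Aldoa at 405. Eno4 was at 78.2 FPKM and Eno3 at 30.9, against Eno1 at 68.7. In the lines Aldoart1, Aldoart2 and Eno4 were at most 0.628 FPKM. Within the group, the exchange of the leading member was nearly complete at phosphoglycerate mutase, which moves a phosphate group late in glycolysis. Pgam2, the muscle form, stood at 2316 FPKM in round sperm, 1.49 in A129-2, 2.23 in AOS-14, 1.66 in AOS-16, with 1.67 and 2.27 in ESC XX. Pgam1, the form of most tissues, stood at 12.0 FPKM in round sperm, 566 in A129-2, 559 in AOS-14, 762 in AOS-16 and 519 and 522 in ESC XX. Every stem cell library was thus on the far side of round sperm for both genes. As a share of the summed FPKM of the pair, Pgam1 made up 0.515% in round sperm but 99.7% ± 0.0935 (SD, n = 3) in AG-haESCs. A share within a library does not depend on the scaling between libraries.

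Hexokinase, which traps glucose in the cell, showed the same kind of exchange. Hk1 stood at 696 FPKM in round sperm against 29.1 in A129-2, 32.0 in AOS-14, 40.7 in AOS-16 and 22.5 and 22.5 in ESC XX. Hk2 was at 0.656 FPKM in round sperm, 42.3 in A129-2, 82.7 in AOS-14, 121 in AOS-16, and 36.6 and 37.4 in ESC XX. Hk2 made up 0.0942% of the pair in round sperm and 59.2 to 74.8% in the stem cell libraries. Gene-level values do not separate the germ cell transcripts of Hk1, known from mouse testis, from the somatic ones.

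Phosphofructokinase, the committing step of glycolysis, had the liver subunit Pfkl at 0.443 FPKM in round sperm, 66.2 in A129-2, 49.5 in AOS-14, 99.4 in AOS-16 and 48.1 and 47.3 in ESC XX. The muscle subunit Pfkm ran the other way, from 181 FPKM in round sperm to 9.89 in A129-2, 26.04 in AOS-14, 21.2 in AOS-16 and 10.7 and 11.3 in ESC XX. Pfkm held 58.1% of the 3 subunits' FPKM in round sperm and 6.42 to 16.7% in AG-haESCs. The platelet subunit Pfkp kept 41.8% in round sperm but 52.1% ± 1.83 (SD, n = 3) in AG-haESCs. Exons of Pfkm, Pfkp, Aldoa, Tpi1 and Ankrd37 overlap a gene of the opposite strand in the annotation, and the sources used here do not say whether counting used the strand that the library kit marks.

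**Figure D2:**
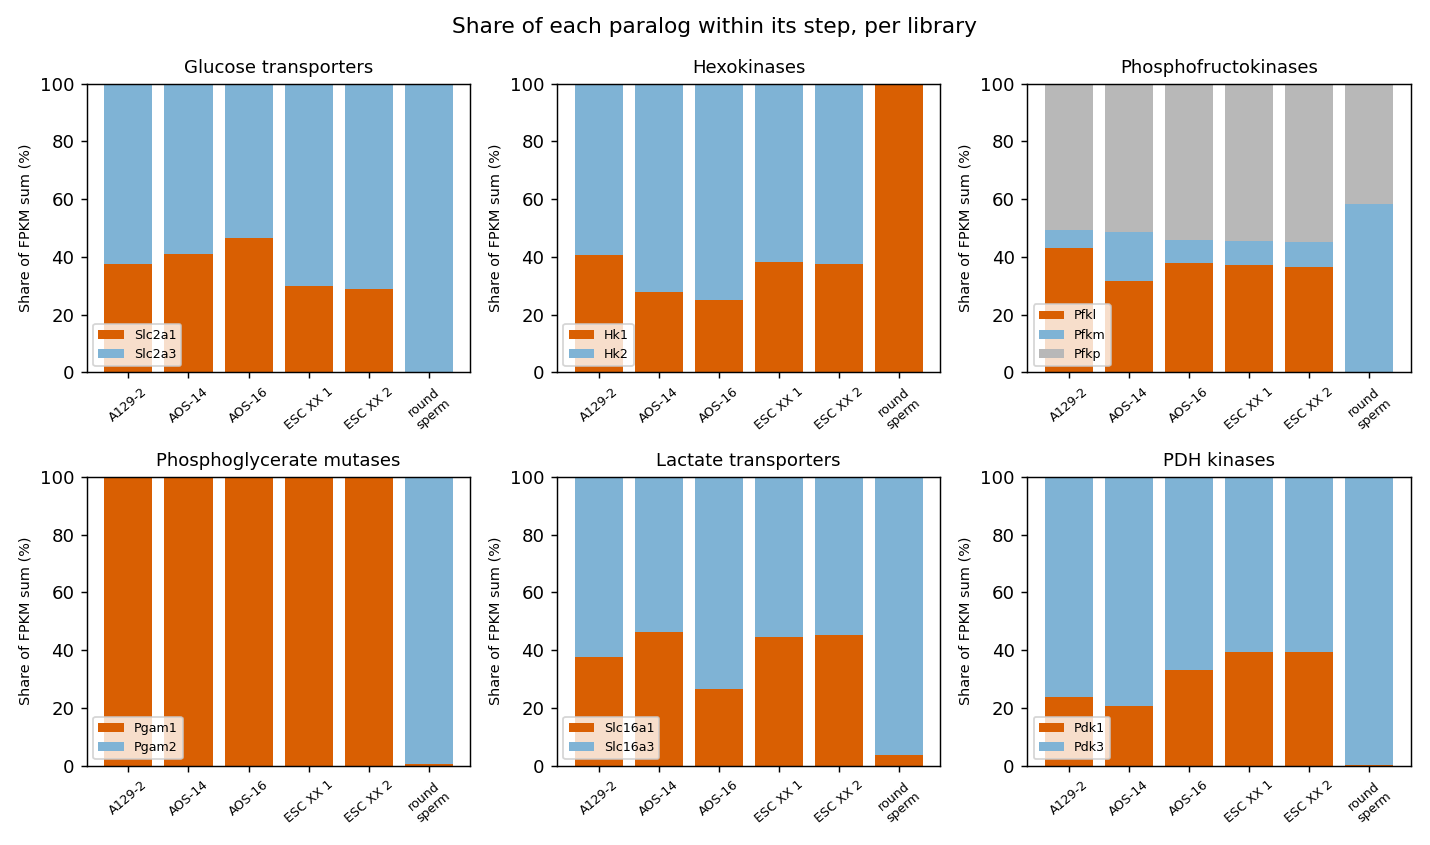
Share of each paralog in the summed FPKM of the genes of the group for its step, in percent, 1 stacked bar per library for 6 steps. Paralogs outside the group are left out. Among these, in round sperm, Slc16a7 was at 649 FPKM, against Slc16a3 at 20.7, and Pdk2 at 281, against Pdk3 at 78.8. In round sperm the bars are filled by Slc2a3, Hk1, Pgam2, Slc16a3 and Pdk3, and no Pfkl is visible (0.142%), whereas the 3 AG-haESC and 2 ESC XX bars are mixed at every step except phosphoglycerate mutase, where Pgam1 exceeds 99%.

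Among transporters, Slc2a1 (GLUT1, the widely expressed glucose transporter) was at 0.542 FPKM in round sperm, 320 in A129-2, 442 in AOS-14, 906 in AOS-16, and 119 and 114 in ESC XX. Slc2a3 (GLUT3, a high-affinity glucose transporter known from neurons, early embryos and sperm) was at 432 FPKM in round sperm, 535 in A129-2, 632 in AOS-14, 1045 in AOS-16, and 281 in each ESC XX library. Round sperm lay far below all stem cell libraries for the first. For Slc2a3 it lay between ESC XX and AG-haESCs on FPKM, but below all of them on TPM, at 349 against 553 in each ESC XX library. Slc16a1 (MCT1), a carrier of lactate and pyruvate, was at 0.802 FPKM in round sperm, 35.9 in A129-2, 46.8 in AOS-14, 50.4 in AOS-16, and 35.4 and 36.7 in ESC XX. Slc16a3 (MCT4), the lactate exporter of highly glycolytic cells, was at 20.7 FPKM in round sperm, 59.7 in A129-2, 54.5 in AOS-14, 139 in AOS-16, and 44.0 and 44.6 in ESC XX.

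The test against round sperm was limma on log2(FPKM + 1) over 15938 genes, two-sided, and a gene was called when its p, adjusted by Benjamini-Hochberg, was below 0.05 and its log2 difference was 1 or more either way. Car9, a carbonic anhydrase known as a marker of hypoxia, had an FPKM of 0.839 in AOS-16, 0.201 in AOS-14, 0.122 in A129-2, 0.0522 in round sperm, and 0.613 and 0.535 in ESC XX. It stayed under 1 FPKM throughout and was not tested, which left 34 genes. Of these 17 rose in AG-haESCs against 22.8% of all genes tested, and 4 fell against 39.1%. The median difference was 2.81, beside -0.49 over all genes. When each library was rescaled to the same total, the median over all genes became 0.40, so sizes depend on the scaling.

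Slc2a1 rose by 8.36 on the log2 scale (SE 0.76, limma adjusted p = 0.00636, 3 lines against 1 library) and Slc16a1 by 4.64 ± 0.26 (adjusted p = 0.00254), each higher in 3 of 3 lines. Slc2a3 (0.71) and Slc16a3 (1.84) were not called. Of the 14 enzymes 6 rose and 3 fell. Pgam1 rose by 5.58 ± 0.26 (limma adjusted p = 0.0018) and Pfkl by 5.60 ± 0.50 (adjusted p = 0.00610). Hk2, Aldoc, Pkm and Aldoa also rose, by 5.52, 4.34, 3.53 and 1.96. Aldolases cut the sugar into its trioses, Aldoa being the muscle and general form and Aldoc the brain form, and Pkm is the pyruvate kinase that ends the pathway. Pgam2 fell by 9.71 (SE 0.21, limma adjusted p = 0.000371), Hk1 fell by 4.33 (SE 0.25, adjusted p = 0.00268) and Pfkm fell by 3.28 (SE 0.68, adjusted p = 0.0341), each lower in 3 of 3 lines. Gpi1, Pfkp, Tpi1, Eno1 and Eno2 were not called, and Eno1 shares near-identical sequence with Eno1b, which the tables list apart, so reads may be split between them.

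Of the 4 regulators, 1 rose and 1 fell. Pdk1, a kinase that shuts pyruvate dehydrogenase and so keeps pyruvate out of mitochondria, was at 0.147 FPKM in round sperm, 17.9 in A129-2, 14.4 in AOS-14, 36.3 in AOS-16, and 10.3 and 10.4 in ESC XX. It rose by 4.27 ± 0.66 (limma adjusted p = 0.0187). Its X-linked paralog Pdk3 was at 78.8 FPKM in round sperm, 57.2 in A129-2, 55.5 in AOS-14, 73.9 in AOS-16, and 15.8 and 15.9 in ESC XX, and was not called. Pfkfb3 and Pfkfb4 make fructose 2,6-bisphosphate, the activator of phosphofructokinase. Pfkfb4, the form known from testis, was at 23.1 FPKM in round sperm, 1.03 in A129-2, 1.41 in AOS-14, 1.29 in AOS-16, and 1.43 and 1.86 in ESC XX, and fell by 3.43 (SE 0.14, limma adjusted p = 0.00144). Pfkfb3 was at 19.9 FPKM in round sperm, 6.10 in A129-2, 14.3 in AOS-14, 27.8 in AOS-16, and 3.90 and 4.65 in ESC XX, so round sperm lay within the range of the lines.

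Hif1a, Egln1 and Egln3 were each under 1 FPKM in round sperm. Hif1a was at 0.442 FPKM there, 22.5 in A129-2, 25.6 in AOS-14, 15.2 in AOS-16, and 30.3 and 31.0 in ESC XX, a rise in AG-haESCs of 3.91 ± 0.37 (limma adjusted p = 0.00711). Egln1, the main sensor, was at 0.248 FPKM in round sperm, 29.1 in A129-2, 22.2 in AOS-14, 47.2 in AOS-16, and 15.8 and 15.7 in ESC XX, a rise of 4.69 ± 0.53 (adjusted p = 0.00991). Egln3, a sensor that is itself strongly induced by HIF, was at 0.111 FPKM in round sperm, 7.33 in A129-2, 24.5 in AOS-14, 61.3 in AOS-16, and 10.7 and 9.98 in ESC XX. Its difference of 4.41 ± 1.43 was not called (adjusted p = 0.0831), with an SE that follows the spread between the lines, but it passed at a pseudocount of 0.1, where limma gave an adjusted p of 0.0376 (0.0376 to 0.224 over the 9 alternatives).

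Of 9 further HIF targets tested, 6 rose and 0 fell. Ndrg1, a stress-responsive gene of cell growth control, was at 0.102 FPKM in round sperm, 41.6 in A129-2, 107 in AOS-14, 205 in AOS-16, and 17.2 and 15.5 in ESC XX, a rise of 6.48 ± 1.13 (limma adjusted p = 0.0235). Ddit4 (REDD1), an inhibitor of mTORC1 signalling, was at 0.866 FPKM in round sperm, 60.7 in A129-2, 142 in AOS-14, 355 in AOS-16, and 27.2 and 27.3 in ESC XX, a rise of 6.30 ± 1.25 (adjusted p = 0.0307). All lines were above ESC XX and round sperm for both genes. Vegfa, the angiogenic growth factor, was at 0.176 FPKM in round sperm, 27.95 in A129-2, 71.9 in AOS-14, 132 in AOS-16, and 26.3 and 24.8 in ESC XX. Bnip3, which targets mitochondria for autophagy, was at 4.13 FPKM in round sperm, 96.5 in A129-2, 104 in AOS-14, 285 in AOS-16, and 50.6 and 54.2 in ESC XX. Both rose, Vegfa by 5.80 and Bnip3 by 4.80, as did P4ha1 (5.05), a subunit of collagen prolyl hydroxylase, and Ankrd37 (2.11), an ankyrin-repeat HIF target. Bnip3 has 4 near-identical copies among other annotated genes, so that its level is uncertain. Bnip3l, the paralog of Bnip3, and P4ha2 were not called, at 0.69 and 1.39. Kdm3a, a histone demethylase, was higher in round sperm (66.5 FPKM) than in the lines (35.7 to 44.1) but below the size needed for a call, and this direction turned after rescaling to the same total (0.37). Ndrg1, Egln3, P4ha1, Aldoc, Pdk1 and Vegfa were all between 0.102 and 0.176 FPKM in round sperm, so the size of their differences depends on the pseudocount, Ndrg1 moving from 6.48 to 8.90 at 0.1.

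Calls against round sperm became fewer over all genes tested, in both directions, when any 1 line was left out. Those for the 35 genes rest on 3 lines of differing level and 1 library. Without AOS-14 the count fell from 17 to 6 higher and from 4 to 3 lower, and Slc2a1, Slc16a1, Hk1, Pfkl, Pgam1, Pgam2, Pfkfb4, Hif1a and Egln1 were the 9 genes called under each of the 9 alternatives tried.

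**Figure D3:**
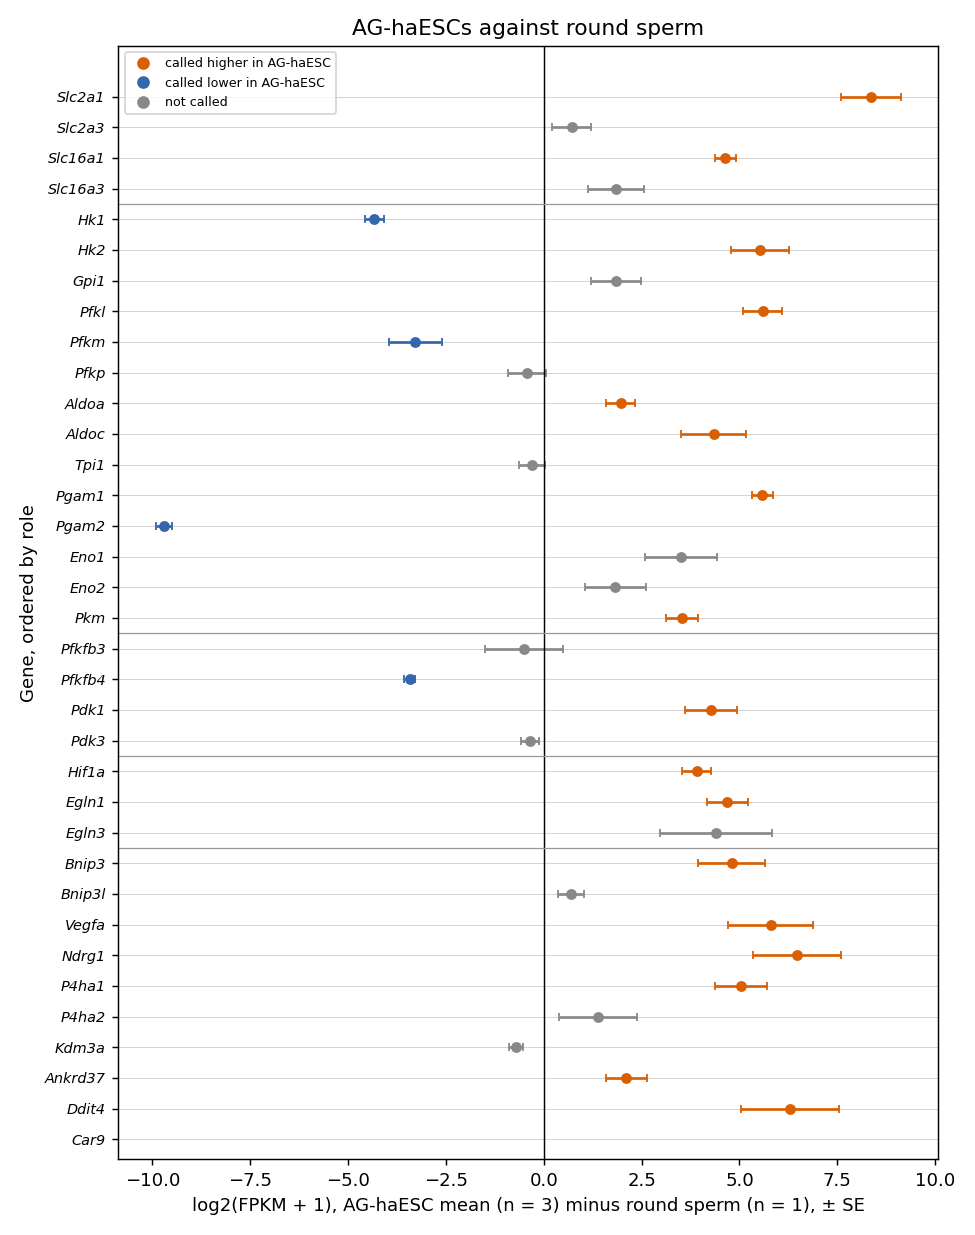
Difference in log2(FPKM + 1) between the mean of the 3 AG-haESC lines and the 1 round sperm library, with its SE from limma, coloured by call (Car9 was not tested). Orange points to the right run up to Slc2a1 at 8.36, and the 4 blue points to the left are Hk1, Pfkm, Pgam2 and Pfkfb4.

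Germ cells also carry isozymes encoded by genes outside this group, and a list of 9 genes for such isozymes was read beside it. That list also held Pgam1, which is itself a member of the group and, as given above, was higher in AG-haESCs than in round sperm. Ldhc, the lactate dehydrogenase of sperm, stood at 8314 FPKM in round sperm, Gapdhs at 1369 and Pgk2 at 1230, while no AG-haESC library exceeded 1.32, 0.362 and 0.0364 FPKM in that order. Slc16a7 stood at 649 FPKM in round sperm, Aldoart2 at 521, Aldoart1 at 164, Pdha2 at 107 and Eno4 at 78.2. In the lines these were at most 0.628 FPKM, except Pdha2 at 4.66 in A129-2.

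Against ESC XX, AG-haESCs had more RNA of both glucose transporters, of 2 of the 4 flux regulators and of 4 of the 10 HIF targets. No test was run, because these libraries lie in separate tables whose normalization to each other is not stated. Libraries were rescaled to the same total (TPM), the difference of group means of log2(TPM + 1) was taken less the median over all 14251 genes compared (-0.10), and a gene was called when this difference was at least 1 and all AG-haESC libraries lay on 1 side of both ESC XX libraries. Of the 35 genes 8 were called higher (22.9%), against 6.93% of all genes compared, and 0 lower, against 7.82%. The median over the 35 was 0.57, beside 0 over all genes by construction.

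The 8 were Slc2a1 and Slc2a3 among transporters, Pfkfb3 and Pdk3 among regulators, and Bnip3, Vegfa, Ndrg1 and Ddit4 among HIF targets. Their differences were 2.44 ± 1.10 (log2, SD of the 3 lines) for Ndrg1, 2.30 ± 1.25 for Ddit4, 2.02 ± 0.81 for Slc2a1 and 1.84 ± 0.39 for Pdk3. Pfkfb3 followed at 1.47 ± 1.01, Bnip3 at 1.34 ± 0.96, Slc2a3 at 1.24 ± 0.58 and Vegfa at 1.23 ± 1.06. Of these 8, Pdk3 had the smallest SD across the lines. Egln3 (0.99), Hk2 (0.92), Pdk1 (0.91) and Egln1 (0.88) lay just under the bound, and Pfkfb4 was at -0.33. Within the glucose transporters, Slc2a1 made up 37.4, 41.2 and 46.5% of the pair's FPKM in A129-2, AOS-14 and AOS-16, above both ESC XX libraries at 29.8 and 28.8%.

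No glycolytic enzyme of the 14 was called, and their differences ran from -0.85 (Eno2) to 0.92 (Hk2), with 10 above 0. Single enzymes differed in direction. Aldoa was at 1412, 1324 and 2114 FPKM in A129-2, AOS-14 and AOS-16, above the 887 and 868 of ESC XX, a difference of 0.76. Pkm was at 908, 1103 and 1587 FPKM in A129-2, AOS-14 and AOS-16, and at 1146 and 1127 in ESC XX. Tpi1, which interconverts the trioses, was at 296, 307 and 450 FPKM, against 265 and 262 in ESC XX. Eno1 lay on both sides of ESC XX, at -1.24 in AOS-14 and 0.73 in AOS-16. Hif1a itself was lower, at -0.65 ± 0.32, with every line below both ESC XX libraries but under the size needed for a call.

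The counts depended on the lines included. Without AOS-16 4 genes were called higher (Slc2a1, Pdk3, Ndrg1 and Ddit4), 1 was called lower (Eno2), and the median fell to 0.26. Without A129-2 12 were called higher and without AOS-14 10. Over all genes 987 were called higher with every line, 1037 without AOS-16, 1303 without A129-2 and 899 without AOS-14. Those called lower were 1182 without AOS-16, against 1114 with every line. Taken 1 line at a time, each centred on its own median over all genes, AOS-16 had 20 of the 35 at least 2-fold above the ESC XX mean and outside both libraries (9.47% of all genes) and 1 below, Hif1a (10.0%). AOS-14 had 9 above (10.6% of all genes) and 1 below, Eno1 (9.61%). A129-2 had 4 above (8.06% of all genes) and 1 below, Eno2 (10.0%). The lines' counts share the ESC XX libraries.

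**Figure D4:**
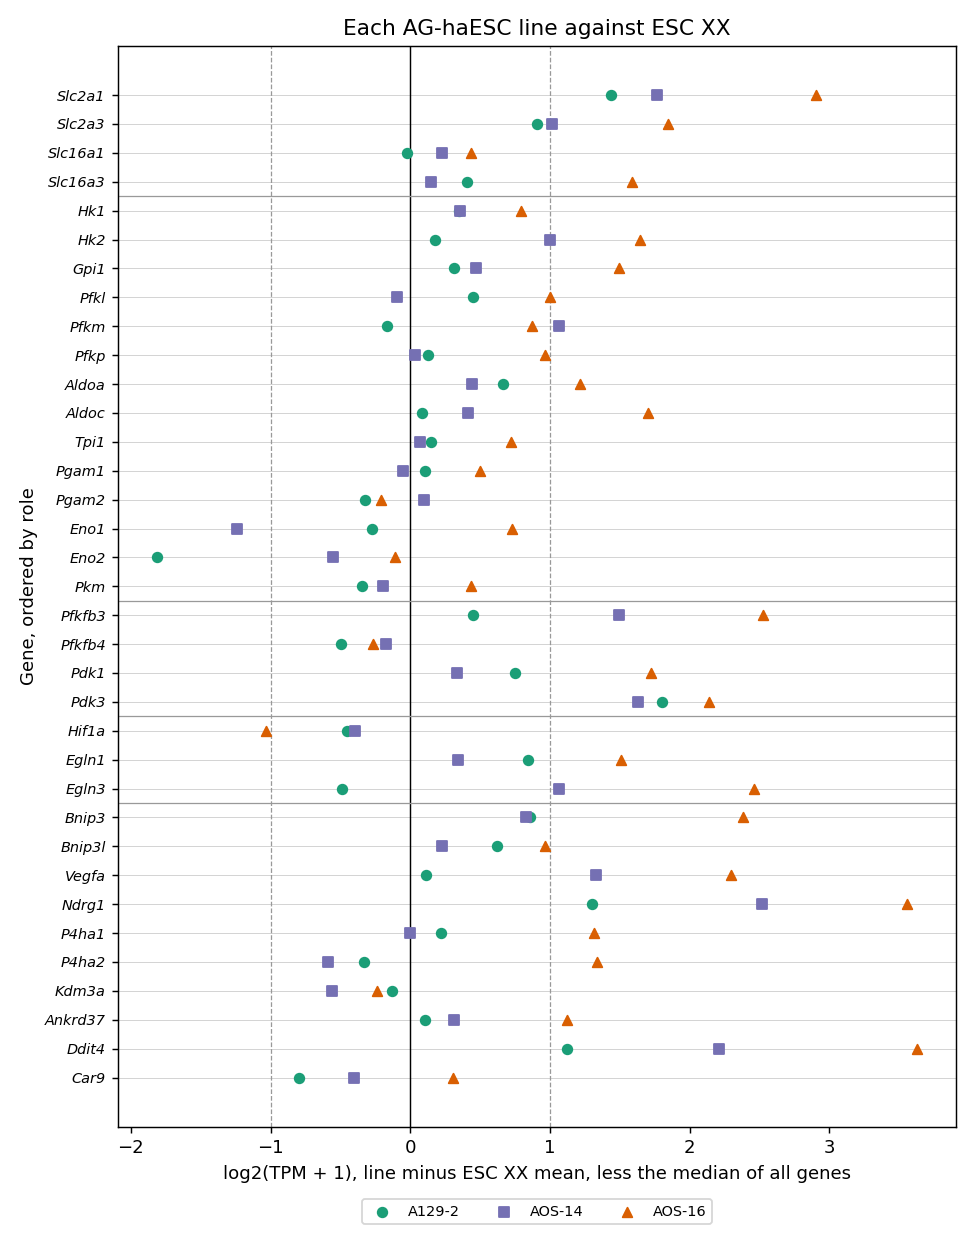
Difference in log2(TPM + 1) between each AG-haESC line and the mean of the 2 ESC XX libraries, less that line's median over all genes, 1 symbol per line, with dashed lines at a difference of 1 either way. AOS-16 lies furthest right for most genes, up to 3.63 for Ddit4 and 3.56 for Ndrg1, while for Hif1a it lies furthest left at -1.03.

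The AG-haESC lines also differed from each other, and AOS-16 had the highest level of most of the 35 genes. Each line was set against the mean of the other lines on log2(TPM + 1), less the median of that difference over 13569 genes, and counted when at least 2-fold away and outside both others. In AOS-16 16 of the 35 genes were higher by this rule (45.7%), against 3.96% of all genes compared, and 0 were lower, against 2.68%. With size left aside, AOS-16 was above both other lines for 30 of the 35, against 30.5% of all genes. Each line had 1 library, so a difference between lines has no replicate check, and the line cannot be told apart from its culture on the day.

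The 16 came from every role. HIF targets gave 6 of their 10, namely Ddit4 (1.99), P4ha2 (1.82), Ndrg1 (1.67), Vegfa (1.60), Bnip3 (1.56) and P4ha1 (1.23). P4ha2, another subunit of collagen prolyl hydroxylase, was at 42.4 FPKM in AOS-16, 11.5 in AOS-14, 12.7 in A129-2, 15.9 in both ESC XX libraries and 6.44 in round sperm. P4ha1 was at 62.3 FPKM in AOS-16, 26.4 in AOS-14, 28.3 in A129-2, 23.9 in both ESC XX libraries and 0.119 in round sperm. For both, AOS-14 and A129-2 lay near ESC XX and AOS-16 stood apart. The sensor Egln3 had the widest gap, 2.197 above the other lines, and was 2.95 above A129-2 and 1.40 above AOS-14.

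The enzymes gave 5 of the 16. Eno1, the general enolase, was at 1555 FPKM in AOS-16, 427 in AOS-14 and 761 in A129-2, with 911 and 905 in ESC XX and 68.7 in round sperm. Eno2, the neuronal enolase, was at 6.32 FPKM in AOS-16, 4.72 in AOS-14 and 1.56 in A129-2, with 6.49 and 6.85 in ESC XX and 0.340 in round sperm. The enolases thus differed in which line was lowest, AOS-14 for Eno1 and A129-2 for Eno2. Aldoc was at 42.3 FPKM in AOS-16, 18.1 in AOS-14 and 13.1 in A129-2, with 12.8 and 11.6 in ESC XX and 0.122 in round sperm. Gpi1, which turns glucose 6-phosphate into fructose 6-phosphate, was at 738 FPKM in AOS-16, 389 in AOS-14 and 317 in A129-2, with 256 and 248.8 in ESC XX and 125 in round sperm. Hk2 completed the enzymes, at 1.08 above the other lines. Transporters Slc2a1 and Slc16a3 (1.33 each) and regulators Pfkfb3 (1.57) and Pdk1 (1.205) made up the rest.

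A129-2 was at the other end for many of these genes, with 8 of 35 lower than the other lines (22.9%), against 7.83% of all genes, and 0 higher, against 6.42%. They were Egln3 (-2.24), Ddit4 (-1.79), Ndrg1 (-1.73), Vegfa (-1.69), Pfkfb3 (-1.55), Eno2 (-1.47), Hk2 (-1.14) and Pfkm (-1.12). All but Pfkm were also among the 16 genes higher in AOS-16. Each line enters the mean that the others are set against, so the counts of the lines are not independent. In AOS-14 Eno1 (-1.46) and P4ha2 (-1.08) were lower (2 of 35, 5.71%, against 2.40% of all genes) and 0 were higher, against 5.14%. For Egln3, Ndrg1, Vegfa, Ddit4, Pfkfb3 and Hk2 the lines stood in the order A129-2, AOS-14, AOS-16, whereas for Bnip3, P4ha1 and Slc2a1 AOS-14 and A129-2 were closer to each other than to AOS-16.

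Hif1a was the exception, being lowest in AOS-16, with a difference of -0.58 from the other lines. For Pgam2, Pfkm, Pfkfb4 and Kdm3a AOS-16 lay between the other lines. The other 14 genes were higher in AOS-16 by less than 2-fold, from 0.35 (Slc16a1) to 0.94 (Ankrd37 and Egln1). Egln1 and Ankrd37 lie on chromosome 8, whose 474 genes of at least 10 TPM had a median 0.91 higher in A129-2 than in the other lines. In A129-2 the same measure was -0.07 for Egln1 and -0.60 for Ankrd37, and the part of chromosome 8 in these values was not tested.

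Some measures of the libraries moved with this pattern and some did not. The fibroblast markers (5 of 5 in the tables) summed to 98.5 FPKM in AOS-16, to 85.9 in AOS-14 and to 11.2 in A129-2, while ESC XX, with 677 in the first library and 678 in the second, had a mean below AOS-16 for 30 of the 35 genes. Their part in the difference between lines was not tested. Depth (in units of 1e6 fragments) was about 10.7 in AOS-16, 9.16 in A129-2 and 19.6 in AOS-14. With genes under 200 nt left out, AOS-16 again had 16 genes higher, and it had 15 when compared with AOS-14 alone and 17 when compared with A129-2 alone.

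**Figure D5:**
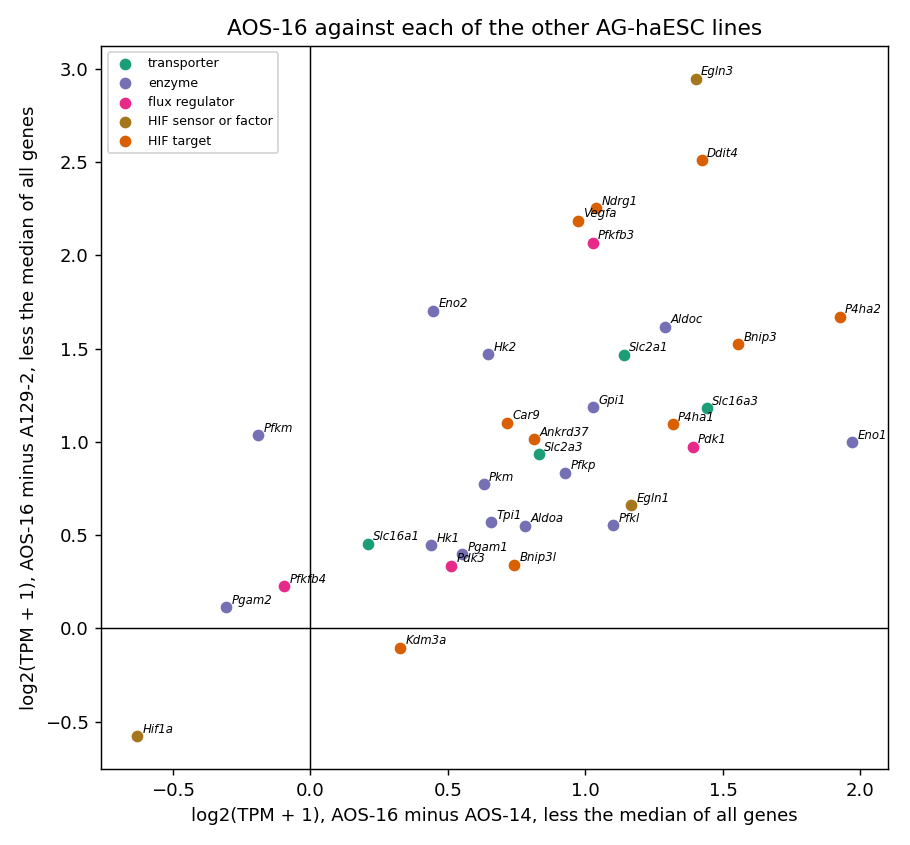
Difference in log2(TPM + 1) of AOS-16 from AOS-14 (horizontal) and from A129-2 (vertical), each less its median over all genes, 1 point per gene, coloured by role. Of the 35 genes 30 lie in the upper right, with Egln3 at 1.40 and 2.95 and Eno1 at 1.97 and 1.00, and Hif1a lies alone in the lower left.

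Promoters were read to show the HIF core letters in genes of the group, from RefSeq on GRCm38.p6, a later build than the mm9 of the files. A window was listed for 32 of the 35. Below are the 250 bases before the start of Ddit4, Egln3, Bnip3 and Slc2a1, which were higher in AOS-16, and of Hif1a, which was not. Capitals mark ACGTG or GCGTG on either strand (CACGT or CACGC when read on the strand shown), and matches that overlap run together. Positions are chr10:59951771-59952020 (minus strand) for Ddit4, chr12:54203875-54204124 (minus) for Egln3, chr7:138909507-138909756 (minus) for Bnip3, chr4:119108495-119108744 (plus) for Slc2a1 and chr12:73907617-73907866 (plus) for Hif1a.
Ddit4: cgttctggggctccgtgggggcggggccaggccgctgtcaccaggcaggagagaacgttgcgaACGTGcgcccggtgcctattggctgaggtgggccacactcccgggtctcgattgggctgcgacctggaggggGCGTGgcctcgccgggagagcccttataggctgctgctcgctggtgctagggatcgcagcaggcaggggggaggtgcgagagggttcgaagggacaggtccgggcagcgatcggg
Egln3: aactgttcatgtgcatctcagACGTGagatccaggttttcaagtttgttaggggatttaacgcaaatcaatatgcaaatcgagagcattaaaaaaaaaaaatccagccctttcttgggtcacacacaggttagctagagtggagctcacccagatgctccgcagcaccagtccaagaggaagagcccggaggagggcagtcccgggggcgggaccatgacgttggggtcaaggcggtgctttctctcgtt
Bnip3: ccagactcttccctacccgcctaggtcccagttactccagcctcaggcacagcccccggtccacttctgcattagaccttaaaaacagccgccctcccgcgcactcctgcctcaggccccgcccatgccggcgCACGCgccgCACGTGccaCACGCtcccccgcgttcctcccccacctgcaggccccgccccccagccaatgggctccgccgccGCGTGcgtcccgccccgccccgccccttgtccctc
Slc2a1: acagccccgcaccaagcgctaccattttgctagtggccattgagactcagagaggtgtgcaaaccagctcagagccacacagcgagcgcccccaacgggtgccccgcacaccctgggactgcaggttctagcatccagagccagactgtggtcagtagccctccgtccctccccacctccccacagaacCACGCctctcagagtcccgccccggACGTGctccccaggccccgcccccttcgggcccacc
Hif1a: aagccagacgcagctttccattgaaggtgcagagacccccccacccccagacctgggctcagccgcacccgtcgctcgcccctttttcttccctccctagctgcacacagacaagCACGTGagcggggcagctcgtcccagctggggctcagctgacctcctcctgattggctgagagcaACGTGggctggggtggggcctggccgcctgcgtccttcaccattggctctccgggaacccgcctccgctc

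Ddit4 and Slc2a1 each held 2 matches, Egln3 held 1, at its far end, Bnip3 held 5 and Hif1a 3. Either core occurred in the first listed window of 24 of 32 genes (75.0%), against 44.8% of 16706 genes with a window and 56.5% of the 10474 that reached 1 TPM in an AG-haESC or ESC XX library. The GC content of these windows had a median of 63.4%, 55.6% and 60.0% in the same order. The letters are short and a match is no evidence of binding. The group includes genes chosen as known HIF targets, so its share of matches is not independent of how the list was made. Gpi1, Eno2, Tpi1 and Pgam2 had no match in any window listed for them, of which Gpi1 and Eno2 were also among the 16 genes higher in AOS-16. Matches also occurred in genes that were not among the 16, with 4 each in Slc16a1, Pdk3 and Ankrd37. Whether matches differ between the 16 and the other genes of the group was not tested.

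The rest of the pathway was read in 50 further genes of glycolysis, pyruvate use and the HIF response. Of 47 tested against round sperm 15 rose (31.9%) and 12 fell (25.5%), against the 22.8% and 39.1% of all genes tested. Gapdh, which makes NADH, and Pgk1, which makes the first ATP of the pathway, rose by 6.80 (limma adjusted p = 0.0151) and 7.22 (adjusted p = 0.00405), and Egln2, another sensor, fell by 5.36 (adjusted p = 0.00193). Egln2 was at 624 FPKM in round sperm, where Egln1 was at 0.248 and Egln3 at 0.111, and at 11.5 to 16.4 in the lines.

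Against ESC XX 4 of 46 were called higher (Pgk1, Pfkfb1, Higd1a and Bhlhe40) and 4 lower (Eno3, Ak4, Lox and Loxl2), or 8.70% each way, close to the 6.93% and 7.82% of all genes. The higher count was 7 without A129-2, 7 without the second ESC XX library and 8 with a pseudocount of 0.1. Lox and Loxl2 cross-link collagen and are also made by fibroblasts. Lox stood at 155 FPKM in both ESC XX libraries and at 1.40 to 12.6 in the lines, where fibroblast markers were also lower, and the part of feeder cells in this difference was not tested. In AOS-16 12 of 45 were higher than in the other lines (26.7%, against 3.96% of all genes) and 0 lower. The 12 included Lox (1.92) and Loxl2 (1.00), and AOS-16 also had the highest sum of fibroblast markers among the lines. The part of feeder cells in this count was not tested. Adm, a vasodilator peptide, was at 22.1 FPKM in AOS-16, 5.66 in AOS-14 and 1.27 in A129-2. Stc2, a secreted glycoprotein, was at 22.1, 4.99 and 3.57 FPKM, and Ero1l, an oxidase of protein folding, at 139, 43.0 and 48.6 FPKM in that order. Gapdh, also among the 12, was at 6025, 1609 and 3690 FPKM, and has 73 near-identical copies among other annotated genes, so that its level is uncertain.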

How the data were processed

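Messenger RNA of 6 libraries was compared in 3 groups. The authors deposited FPKM values per gene, made with TopHat2 2.0.13 and Cuffdiff 2.2.1 on mm9 per the submitters' processing notes. The sources used here do not give the annotation, the handling of multi-reads and strand, or the normalization between libraries. The header of the 4-library table does not name the unit, which was taken from the tool and the values. No read counts were given, and depths are approximate.

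From these values, limma 3.58.1 (R 4.3.3, trend) was run on log2(FPKM + 1) over genes that reached 1 FPKM in any of the 4 libraries compared, on 2 residual degrees of freedom. The lone round sperm library is assumed to vary like the lines, so p-values measure the spread between these lines. The size-and-overlap rules on TPM are given with their results. Values in every library were given for genes called against ESC XX, for the 2 genes of each role with the largest difference from round sperm and for genes at least 2-fold apart between lines. Near-identical copies were genes matching at least 500 nt at 95% identity (blastn on GENCODE M21). Among the 35 genes Bnip3 had 4, Eno1 had 3, and Gpi1, Pfkp, Pgam1, Pkm and Bnip3l had 1 each. The methods were tested on simulated data. Members and lists were chosen with earlier results of these data known.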

Additional observations from a re-analysis of the deposited data

How the results depend on the processing

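No paired analysis was possible because the AG-haESC lines carry no replicate number in the labels and round sperm is 1 library. The number of the 35 genes called higher against round sperm ran from 6 to 15 with 1 line left out, and against ESC XX from 4 to 12 (called lower from 0 to 1). The median difference from round sperm was 3.31 with a pseudocount of 0.1, 2.11 with no filter on low values, 3.86 after rescaling to the same total, 3.84 with short genes also left out and 3.90 after quantile normalization, against 2.81. Rescaling turned the sign of Pfkp, Tpi1, Pfkfb3, Pdk3 and Kdm3a, none of them called either way. For the rest of the pathway, those called higher against ESC XX were 8 with a pseudocount of 0.1, 7 with FPKM as deposited and 4 to 7 with 1 library left out, against 4, and those lower than round sperm were 7 after rescaling, against 12. Without centring, 644 genes of all were called higher than ESC XX, against 987. FPKM as deposited left 1 gene lower in AOS-14, against 2, and 15 higher in AOS-16. With 100 bases the promoter share was 56.2%, beside 26.5% of all genes and 34.5% of expressed ones. The cause of these shifts was not tested. Comparing AOS-16 with 1 line at a time was chosen after seeing the data. Among single genes against round sperm, 268 results kept their side of the threshold, 26 lost and 12 gained a call, and 0 reversed.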
